A study of Mus musculus with 2 samples.

Results

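Ubiquitin-conjugating (E2) enzymes were compared between 2 cell samples sorted from the spleens of C57BL/6 mice bearing hepatocellular carcinoma, a liver cancer. The members were all genes whose single symbol in the platform annotation begins with Ube2 and a further lower-case letter. There were 33 of them among the 18193 genes with such a symbol, and they were represented by 81 probe sets. A gene's value was that of its probe set with the highest mean log2 intensity. The first sample, titled CD45- cells, was selected by sorting for Ter119, an antigen of late erythroid cells, and against CD45, the common white cell marker. The second, titled CD45+ cells, was the control and came from the same tumor-bearing animals. Both groups thus share the tumor, the strain and the tissue, and neither carries a further allele or agent in the labels. The number and age of the mice, any pooling of them, and tumor-free animals were not given in the sources used here. Each group had 1 array, so there was no replicate, no difference was tested and no p-value is given.

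Ubiquitin is a small protein that marks other proteins for degradation or signalling. An E1 enzyme activates it, an E2 enzyme carries it on a cysteine, and an E3 ligase brings the loaded E2 to the substrate. The E2 decides in large part which kind of chain is built, and a few E2 enzymes carry ubiquitin-like proteins such as NEDD8 or ISG15 instead. Red cell precursors are known for using this system to strip the cell of most proteins other than haemoglobin as they mature. Not all members are active E2 enzymes. Ube2v1 and Ube2v2 lack the catalytic cysteine and work as partners of Ube2n, Ube2d-ps is named as a pseudogene, and Ube2cbp was named for binding Ube2c. Ube2m, an E2 enzyme of NEDD8, was not analysed here.

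Promoter sequences are shown for 4 of the members most above the control in the CD45-negative cells, to give 1 example each from red cell maturation (Ube2h), cell division (Ube2c), DNA repair (Ube2t) and ISG15 transfer (Ube2l6). The windows are RefSeq sequences of GRCm38.p6 and run from 250 bases before to 50 bases after a gene's start. RefSeq gave 36 such windows for 27 of the 33 members. Capitals mark matches on either strand to CCAAT (the box bound by NF-Y), TTTGAA (the core of the cell cycle homology region), AGATAA (bound by GATA factors), TGATAA (the second form of that motif) and CCNCNCCC (a CACC-box pattern of Krüppel-like factors). No match to one motif overlapped a match to another in the windows shown. The Ube2l6 window is chr2:84798578-84798877 on the plus strand, and that of Ube2c is chr2:164769679-164769978 on the plus strand. That of Ube2t is chr1:134962315-134962614 on the plus strand. Ube2h has 2 windows on the minus strand, chr6:30304490-30304789 at the upstream start and chr6:30243754-30244053 at the downstream start.
Ube2l6: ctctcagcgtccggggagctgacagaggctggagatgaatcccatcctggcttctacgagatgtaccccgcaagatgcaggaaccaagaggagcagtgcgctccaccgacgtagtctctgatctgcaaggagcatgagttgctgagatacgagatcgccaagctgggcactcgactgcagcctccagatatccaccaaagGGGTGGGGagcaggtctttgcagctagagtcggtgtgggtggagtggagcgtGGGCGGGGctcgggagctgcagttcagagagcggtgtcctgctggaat
Ube2c: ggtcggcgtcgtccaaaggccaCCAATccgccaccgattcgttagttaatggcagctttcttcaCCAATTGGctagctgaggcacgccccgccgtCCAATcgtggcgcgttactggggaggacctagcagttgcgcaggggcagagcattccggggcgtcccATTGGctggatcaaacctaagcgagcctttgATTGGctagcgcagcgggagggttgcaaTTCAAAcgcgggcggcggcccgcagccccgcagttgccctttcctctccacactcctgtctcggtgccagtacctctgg
Ube2t: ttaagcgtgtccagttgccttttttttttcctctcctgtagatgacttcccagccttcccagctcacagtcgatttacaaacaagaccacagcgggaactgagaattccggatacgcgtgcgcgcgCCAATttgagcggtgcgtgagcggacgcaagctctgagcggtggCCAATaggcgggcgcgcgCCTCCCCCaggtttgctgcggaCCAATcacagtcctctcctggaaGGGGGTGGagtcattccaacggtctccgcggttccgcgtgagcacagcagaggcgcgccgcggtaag
Ube2h, upstream start: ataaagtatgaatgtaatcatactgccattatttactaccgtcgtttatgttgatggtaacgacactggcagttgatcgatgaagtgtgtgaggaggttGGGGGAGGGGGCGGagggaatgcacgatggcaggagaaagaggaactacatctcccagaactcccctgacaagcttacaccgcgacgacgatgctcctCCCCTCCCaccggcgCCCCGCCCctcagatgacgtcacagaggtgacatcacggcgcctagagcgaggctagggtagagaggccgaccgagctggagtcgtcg
Ube2h, downstream start: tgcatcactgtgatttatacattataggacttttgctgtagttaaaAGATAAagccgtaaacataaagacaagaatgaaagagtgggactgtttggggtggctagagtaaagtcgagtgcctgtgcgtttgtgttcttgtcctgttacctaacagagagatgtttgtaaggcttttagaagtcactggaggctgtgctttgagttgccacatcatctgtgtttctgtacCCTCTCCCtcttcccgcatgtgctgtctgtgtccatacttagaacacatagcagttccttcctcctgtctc

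CCAAT occurred 6 times in the Ube2c window, with 1 match to TTTGAA, and 3 times in the Ube2t window. CCAAT was found in 37.4% of all 32851 RefSeq windows of this length and in 7 of the 36 member windows. Only 0.0791% of all windows held at least as many matches as that of Ube2c. TTTGAA occurred in 17.9% of all windows and in 4 of the member windows. The GATA motifs had 1 match in the downstream Ube2h window and none in the other 35 member windows, against 18.6% of all windows. CCNCNCCC had 2 matches in the Ube2l6 window and 5 in the upstream Ube2h window, but it is common, in 49.5% of all windows and in 31 of the 36 member windows. A match describes the letters of a window and does not show that a factor binds there.

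The arrays gave 1 linear intensity per probe set, and every value below is such an intensity or a difference of their log2 values, CD45-negative minus CD45-positive. A gene counted as measured above 101.1, a level set by olfactory and vomeronasal receptor genes (95th percentile of their 80 probe sets), and lower values were raised to that level before a difference was taken. The whole arrays had median intensities of 85.1 (CD45-negative) and 87.8 (CD45-positive). The labels were checked by markers. All 8 erythroid markers with a value were at least 4-fold higher in the CD45-negative array (summed intensity 410060 against 11835), and so were all 6 platelet and megakaryocyte markers (34822 against 1642). All 10 markers of white cells at large were at least 4-fold lower (5711 against 212440). So were the 4 B cell (1641 against 88192), 5 T cell (443 against 30259) and 8 neutrophil and macrophage markers (5094 against 161804). In such bulk samples, fewer cells of a type and less RNA per cell cannot be told apart.

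By their brightest probe sets, 20 of the 30 measured members had positive differences, against 5107 of all 11793 genes measured. Some of these members, such as Ube2a and Ube2d3, had other probe sets of the opposite sign. Of the 33 members, 27 were measured in both arrays, 3 only in the CD45-positive array, and 3 in neither. Of the measured members, 10 were at least 4-fold higher in the CD45-negative array (33.3%), against 8.31% of all 11793 genes measured. At least 4-fold lower were 4 members (13.3%), against 16.8% of all genes. At the 2-fold threshold, 13 members were higher (43.3%, against 16.8% of all genes) and 7 lower (23.3%, against 33.3%). The members' median difference was 0.63 on the log2 scale, and that of all measured genes was -0.26. After quantile normalization of the arrays, 7 of 29 measured members (24.1%) were at least 4-fold higher, against 9.33% of all genes, and the median over all genes moved to 0.01. Many members are bright, and among genes measured in both arrays 10 of 27 members and 829 of all 8272 genes were at least 4-fold higher.

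**Figure D1:**
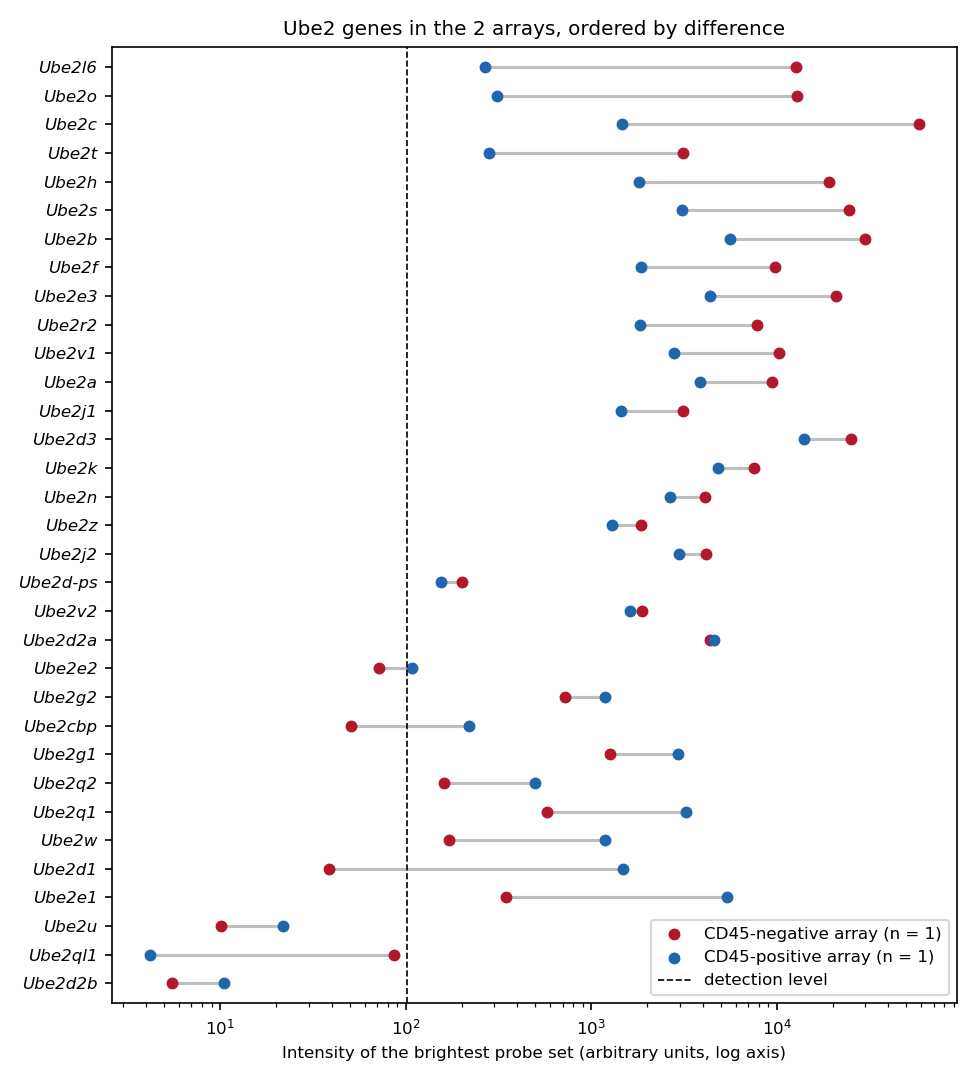
Intensity of each Ube2 gene in the CD45-negative array (red) and the CD45-positive array (blue) by its brightest probe set, on a log axis in arbitrary units, with genes ordered by their difference and the 3 genes under the detection level (dashed line) at the bottom. The red points of Ube2l6, Ube2o and Ube2c lie farthest to the right of their blue points, and those of Ube2e1 and Ube2d1 farthest to the left.

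Repeated values exist only where a gene has several probe sets. Over 23 members with 2 or more measured probe sets, the differences of those sets had a pooled SD of 0.90 on the log2 scale (0.83 over 5474 genes of the whole array), which is not replicate error. In 15 of these 23 members all probe sets pointed the same way, and in 8 they did not. Of the 14 members past 4-fold, 13 had all measured probe sets in 1 direction, the exception being Ube2b. Ube2l6, Ube2o, Ube2c and Ube2d1 had only 1 probe set each, so nothing in the data repeats their values.

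**Figure D2:**
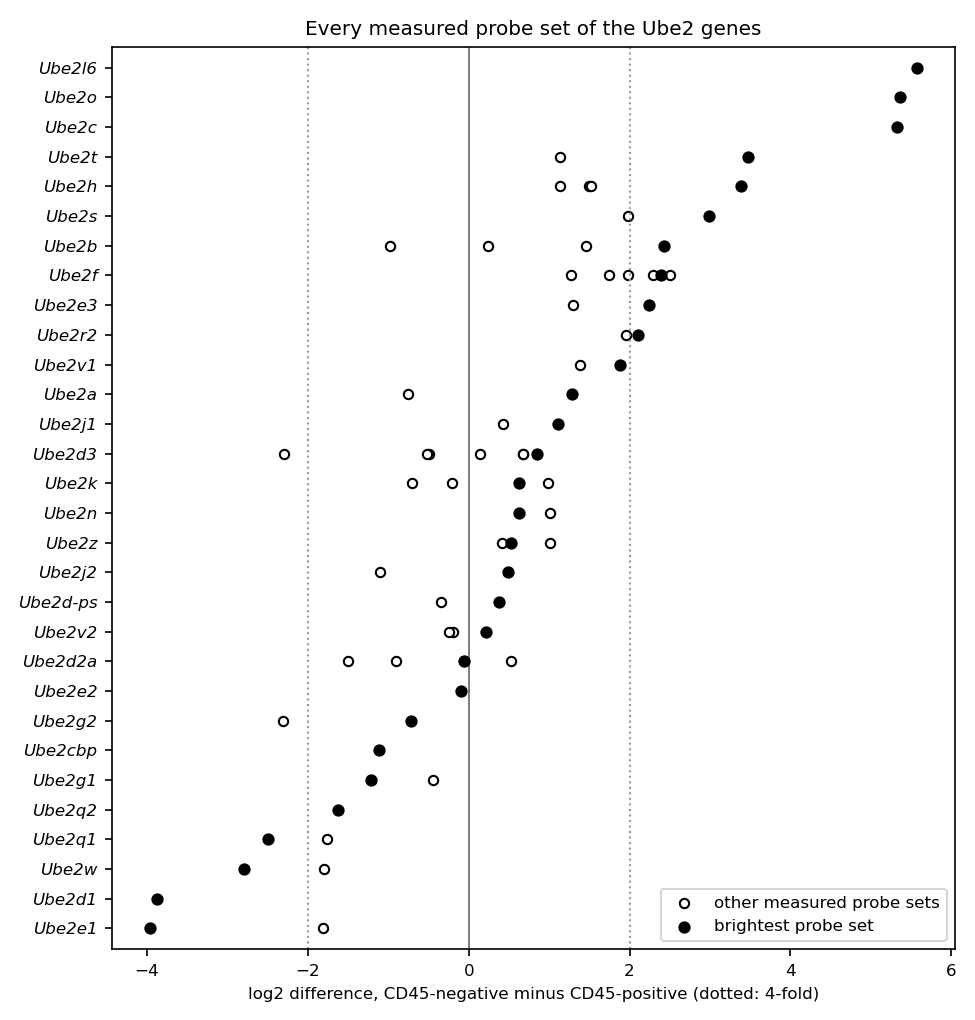
Difference in log2 intensity, CD45-negative minus CD45-positive, for every measured probe set of the 30 measured Ube2 genes, with the brightest probe set of each gene filled and dotted lines at 4-fold. Points of Ube2b, Ube2a and Ube2d3 lie on both sides of 0, while all 6 points of Ube2f lie between 1.27 and 2.50.

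The E2 genes tied to red cell maturation stood far above the control. Ube2o encodes a large enzyme that joins E2 and E3 activity and tags ribosomal and other proteins in reticulocytes. Its intensity was 12795.7 in the CD45-negative cells and 310.5 in the control, a difference of 5.36 (41.2-fold), and 67 of the 11793 measured genes had a larger one. Ube2h encodes the E2 that works with the CTLH ligase, a multi-subunit complex also called GID. It stood at 19120.7 against 1818.4, a difference of 3.39 (10.5-fold). Its probe sets differed in size but not in direction. The 3 dimmer ones read 960.0 against 436.7, 4649.3 against 1639.7 and 6314.3 against 2200.8, with differences from 1.14 to 1.52. With the mean of its probe sets, Ube2h was thus under the 4-fold threshold, at 1.89. The array files do not say which of the 2 Ube2h starts shown above, if either, a probe set follows. The part of the erythroid markers in these values, which moved the same way, was not tested.

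Genes of the CTLH ligase, the partner of Ube2h, were mostly brighter in the CD45-negative cells. The median difference of its 11 genes, all measured, was 1.87 (all measured genes, -0.26). At 4-fold, 5 of them were higher (45.5%, against 8.31% of all genes) and 1 lower (9.09%, against 16.8%). Ranbp10, a scaffold subunit, stood at 20976.6 against 1342.9 (15.6-fold) and the scaffold subunit Armc8 at 8582.3 against 570.6 (15.0-fold), but the 5 probe sets of Armc8 ran from -1.13 to 3.91 and it stood at -0.29 without those marked as sharing sequence, so no direction holds for it. Gid8, Ypel5 and Rmnd5a were 5.89-fold, 6.49-fold and 4.64-fold higher, although averaging the probe sets of Rmnd5a gave a log2 difference of 1.92. The 2 alternative forms of a RING subunit differed in sign, since Rmnd5b stood at 339.9 against 1705.8 (5.02-fold lower, and -1.90 after quantile normalization). Maea, the other RING subunit, had 1279.0 against 1228.2, and Ranbp9, the paralogue of Ranbp10, had 1890.5 against 2373.7. With the mean of probe sets the list's median was 0.83.

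Both E2 enzymes of the anaphase-promoting complex, the ligase that ends mitosis by destroying cyclins and securin, were higher in the CD45-negative cells. Ube2c, which starts chains on its substrates, read 58142.8 in the CD45-negative cells and 1459.7 in the control, a difference of 5.32 (39.8-fold). Ube2s, which extends these chains, read 24420.0 against 3080.5, a difference of 2.99 (7.93-fold). The Ube2s probe set has an identifier that marks sequence shared with other transcripts. Its other probe set read 399.9 against 2.9, a difference of at least 1.98. Most genes of the ligase itself lay within 4-fold. The 16 genes of the complex and its activators had a median of 0.20, and 2 of them passed 4-fold, both upward (12.5%, against 8.31% of all genes). These 2 were the activators Fzr1, at 13535.3 against 817.9 (16.5-fold), and Cdc20, at 21272.3 against 1957.2 (10.9-fold). All 14 core subunits lay between Anapc4, at -1.61, and Anapc5, at 1.45, by their brightest probe sets. The measured probe sets of Anapc1 ran from -2.27 to 0.55. Markers of dividing cells moved with the 2 E2 genes. All 9 with a value were at least 4-fold higher, with a summed intensity of 193511 against 8165, and their part in the result was not tested.

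The 6 members grouped here under DNA repair include Ube2n and both of its partners, Ube2v1 and Ube2v2. By their brightest probe sets all 6 had positive differences, against 5107 of all 11793 genes measured. Their median was 1.58, but probe sets of Ube2a, Ube2b and Ube2v2 had both signs. Ube2t is the E2 of the Fanconi anaemia pathway, where it works with the ligase Fancl on Fancd2 and Fanci. Its intensity was 3113.4 against 280.4, a difference of 3.47 (11.1-fold), and its dimmer probe set gave 1.13. Fancd2 stood at 1309.2 against 90.9, which is not above the level in the control, and was at least 12.9-fold higher, and Fanci at 1013.4 against 172.2 (5.89-fold). Fancl read 2689.9 against 1007.4, a difference of 1.42. Probe sets of Fancd2 ran from 0.25 to 3.69 and those of Fanci from 0.96 to 2.56, and with the mean of probe sets Fancd2 was under 4-fold, at 1.74. Since the dividing cell markers differed likewise, their part in these values was not tested either.

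The RAD6 homologues Ube2a and Ube2b place ubiquitin on histone H2B and on the replication clamp PCNA. Ube2b read 30049.4 against 5582.7, a difference of 2.43 (5.38-fold). Its other probe sets gave 1.46, 0.24 and -0.98, and averaged over all 4 the difference was 0.79. Ube2a read 9474.4 against 3878.6, a difference of 1.29, but 667.0 against 1124.1 by its other probe set (-0.75), so no direction holds for it. Ube2n, which builds chains through lysine 63 of ubiquitin, stood at 4090.2 against 2659.3, a difference of 0.62. Its partner Ube2v1 stood at 10293.2 against 2798.8, a difference of 1.88, and at 7051.5 against 2701.0 by its other probe set (1.38). The identifiers of both mark shared sequence, so it has no value without such sets. The second partner, Ube2v2, had 1875.4 against 1614.1, a difference of 0.22, and its probe sets had both signs. Of the 2 partners only Ube2v1 passed 2-fold. The 11 partner and substrate genes of these repair enzymes had a median of 1.42, with 3 past 4-fold upward (27.3%, against 8.31% of all genes) and 1 downward (9.09%, against 16.8%). The lower one was Hltf, a ligase that extends chains on PCNA, at 283.5 against 1241.0 (4.38-fold lower, and -1.61 after quantile normalization).

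Ube2l6 and Ube2f, which carry ubiquitin-like proteins, were higher with CD45-negative cells too. Dimmer there by their brightest probe sets were 3 enzymes of this kind with other names. Ufc1 stood at -1.33, Atg3 at -2.58, and Atg10, under the level in CD45-negative cells, at 2.0 against 238.8. Ube2l6 carries ISG15, an interferon-induced ubiquitin-like protein, and had the largest difference of all members. Its intensity was 12681.9 in the CD45-negative cells and 266.1 in the control, a difference of 5.57 (47.7-fold), exceeded by 46 of all measured genes. The rest of the ISG15 pathway differed far less. Its E1, Uba7, stood at 6423.6 against 2480.0 (1.37), the ligase Herc6 at 3779.8 against 1044.6 (1.86), the protease Usp18 at 4890.6 against 3078.5 (0.67) and Trim25 at 2958.3 against 3413.0 (-0.21). None of the 4 passed 4-fold by its brightest probe set (those of Uba7 ran from 1.37 to 2.47), and Isg15 itself was not analysed here. Interferon response markers did not move together. Of the 7 with a value, 5 had positive differences (5107 of all 11793 genes measured did). Rsad2 was 21.5-fold higher at 70515.8 against 3275.5, and Ifit1 (1.78), Irf7 (1.26), Usp18 (0.67) and Oas1a (0.03) differed less. Ifit3 stood at 158.3 against 4886.7 and Mx1 at 34.2 against 1722.5, 30.9-fold and at least 13.5-fold lower. The 7 markers summed to 94994 against 21690, with most of the former from Rsad2. Their part in the Ube2l6 value was not tested.

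Ube2f carries NEDD8 to cullin 5 through the RING protein Rnf7. It read 9740.9 against 1855.8, a difference of 2.39 (5.25-fold), and its 6 probe sets all gave positive differences, from 1.27 to 2.50. Without probe sets whose identifiers mark shared sequence the difference was 1.75. Its partners were near equal in the arrays by their brightest probe sets, with Cul5 at 367.2 against 348.0 and Rnf7 at 2088.0 against 2371.1. The 3 probe sets of Cul5 ran from -0.77 to 0.08, and after quantile normalization Cul5 stood at 0.80. Nedd8 stood at 5311.1 against 6630.4. The 13 cullin and NEDD8 ligase genes had a median of 0.10, and 1 of them passed 4-fold, upward (7.69%, against 8.31% of all genes). That gene was Cul4a, at 4784.7 against 610.5 (7.84-fold). Ube2r2 extends chains on substrates of cullin ligases. It read 7842.4 against 1834.2, a difference of 2.10 (4.28-fold), and 1.95 by its other probe set. Its paralogue Cdc34, which the member rule does not take, stood at 2343.8 against 1795.0, a difference of 0.38.

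The general-purpose E2 genes split within families. The Ube2e family, whose products work with many RING ligases, had members at both ends. Ube2e3 read 20773.1 in the CD45-negative cells and 4385.6 in the control, a difference of 2.24 (4.74-fold higher), and its dimmer probe set gave 1.30. Ube2e1 read 345.1 against 5365.7, a difference of -3.96 (15.5-fold lower), and its dimmer probe set gave -1.81. The ratio between the arrays thus differed 73.6-fold between Ube2e3 and Ube2e1. Ube2e2 stood at 71.5 against 108.0, near or under the level in both arrays, and gives no direction.

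In the Ube2d family, which primes substrates for many ligases, only Ube2d1 passed 4-fold, downward. Ube2d1 stood at 38.6 against 1492.2. In the CD45-negative array it was under the level, and it was at least 11.7-fold lower there, taken against 127, the receptor percentile of that array alone. Its close relatives were not lower to such a degree. Ube2d2a read 4375.9 against 4567.1, a difference of -0.06, with 1 of its 5 probe sets positive and the others negative. Ube2d3 read 25235.1 against 13962.7, a difference of 0.85. Its 7 probe sets ran from -2.30 to 0.85, so its direction is uncertain. Ube2d2b, at 5.5 and 10.5, was measured in neither array. Ube2d-ps stood at 202.2 against 155.0, close to the level, with a second probe set of the other sign.

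Ube2w, which attaches ubiquitin to the amino terminus of proteins, was also dimmer in the CD45-negative cells, at 170.8 against 1188.3 (6.96-fold lower). Only 2 of its 4 probe sets were measured, and both were lower. Ube2q1, a less studied E2, stood at 575.8 against 3250.8 (5.65-fold lower), and its other probe set gave -1.76. Its paralogue Ube2q2 stood at 161.1 against 496.1, a difference of -1.62. These 4-fold lower members, Ube2e1, Ube2d1, Ube2w and Ube2q1, moved with the white cell markers, which summed to 5711 with CD45-negative and 212440 with CD45-positive cells, and the part of those markers in these values was not tested.

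By their brightest probe sets, none of the 4 E2 genes of endoplasmic reticulum-associated degradation passed 4-fold, and their median was -0.12. The membrane-anchored Ube2j1 read 3134.8 against 1455.0 (1.11) and its relative Ube2j2 4169.9 against 2973.3 (0.49), with a second Ube2j2 probe set at -1.10. Ube2g2 read 722.0 against 1192.8 (-0.72), but its second probe set stood at 80.3, under the level, against 502.4, and averaging both gave -1.68. Ube2g1 read 1265.8 against 2950.5 (-1.22). Among 7 measured ligase and partner genes of this pathway, 1 passed 4-fold (14.3%, against 8.31% of all genes), namely Rnf139 at 11736.7 against 2665.1 (1.81 after quantile normalization). Both core genes of the main complex had negative differences by their brightest probe sets, with Syvn1 at 898.7 against 2296.5 and Sel1l at 891.3 against 2147.6. The 5 probe sets of Sel1l ran from -1.42 to 0.09.

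The remaining members were close in the arrays or not measured. Ube2k, which builds chains through lysine 48, read 7510.4 against 4844.1, a difference of 0.63, with probe sets of both signs. Ube2z, which Uba6 charges, read 1851.1 against 1293.1, a difference of 0.52, and all 3 of its probe sets were positive. Uba6 itself stood at 340.3 against 1147.8, a difference of -1.75. Ube2cbp stood at 50.4 against 220.1, at least 1.73-fold lower against 127. Ube2ql1 (86.3 and 4.2) and Ube2u (10.1 and 21.7) were under the level in both arrays.

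The lists of the other tiers are given by brightest probe sets. They are read against the 8.31% of all measured genes that were at least 4-fold higher, the 16.8% that were lower and the median of -0.26. Of 6 measured E1 genes, 0 passed 4-fold in either direction (median 0.42), although single probe sets of Uba6 (-2.25), Uba7 (2.47) and Sae1 (2.41) did. The 5 measured ubiquitin and ubiquitin-like genes all lay between -0.63 and -0.22, a median of -0.48. The 7 measured E2 and E2-like genes with other names had a median of -1.24, and 1 of them passed 4-fold, downward. It was Atg3, the E2-like enzyme of autophagy, at 678.6 against 4056.2 (5.98-fold), or -0.26 with the mean of probe sets. Of 12 SUMO pathway genes, 0 passed 4-fold, with a median of -0.14. Probe sets of Ranbp2 ran from -2.41 to 1.28, however, and those of Sae1 from 0.40 to 2.41. Of 13 HECT ligases, which take ubiquitin from an E2 onto themselves, 1 passed 4-fold upward (Herc1, 5.88-fold) and 1 downward (Nedd4l, at least 5.33-fold, and -1.10 without probe sets marked as sharing sequence), with a median of 0.20. Of 10 RING-between-RING ligases, 1 was higher (Rnf19a, 6.96-fold) and 1 lower (Rnf144a, 6.64-fold, with a second probe set at 0.41), with a median of -0.12. Whether these lists differ from the members was not tested.

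**Figure D3:**
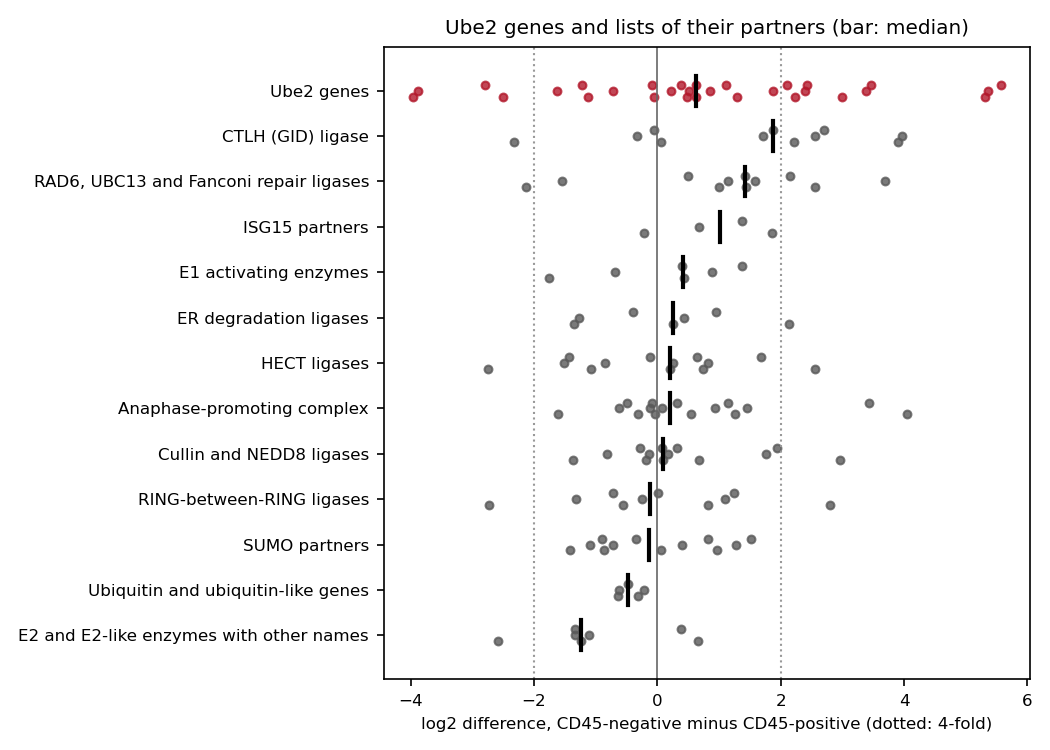
Difference in log2 intensity, CD45-negative minus CD45-positive, for each measured Ube2 gene (red) and each measured gene of 12 lists of their partners (grey), with the list median as a bar, dotted lines at 4-fold and vertical offsets only to separate points. The CTLH ligase list has the highest median of the partner lists, 1.87, and the E2-like genes with other names the lowest, -1.24, while the Ube2 genes span -3.96 to 5.57.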

How the data were processed

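Total RNA of the 2 sorted samples was hybridized to Affymetrix 3' expression arrays, per the labels' protocols. The deposited table held 1 linear intensity for each of 45037 probe sets and array. The submitters' processing notes name Partek 6.6 and GCRMA. Which step gave the deposited intensity values is not settled, because their means with 2% left out at each end were nearly equal (494 and 497) on a linear scale. Detection calls were not used here.

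The log2 of each intensity was taken as it stood, without a pseudocount or renormalization. GEO's platform annotation gave 34945 probe sets 1 symbol, 932 several and 9160 none, and only the first kind was used. All 33 members matched the RefSeq gene table by Entrez identifier. The probe set brightest in the mean of the arrays stood for its gene. Values at or under the level were raised to it, and a fold with 1 array under it is given as a bound against the higher of this level and that array's own receptor percentile. With 1 array per group, no test was possible, and the number of arrays limits every value.

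The text accounts for every member and takes from each partner list the 2 largest differences per direction past 4-fold, or every gene of a list under 6. Further genes named were chosen after their values were seen. Members, lists and the level were chosen with earlier results of these data known. The alternatives were 8 planned ones and 2 chosen after seeing the data. Computations ran in Python 3.11.15 with pandas 2.3.3, numpy 2.4.6, matplotlib 3.10.9 and scipy 1.17.1, and the steps were tested on simulated data.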

Additional observations from a re-analysis of the deposited data

Results flagged for a closer look

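Ube2l3, which loads ubiquitin onto HECT and RING-between-RING ligases, lies outside the members because its 4 probe sets each carry 5 symbols, those of Ube2l3 and of predicted genes. These probe sets, which took no part in the comparisons, were above the detection level and above the CD45-positive control. The brightest read 10245.5 in the CD45-negative array against 6331.4, a difference of 0.69, and the others gave 0.35, 0.46 and 0.71. The signal of Ube2l3 and of the predicted genes cannot be told apart in them.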

How the results depend on the processing

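Over 8 planned and 2 added alternatives, between 7 and 11 members were at least 4-fold higher and between 3 and 5 lower, and the members' median difference stayed between 0.52 and 0.91. Ube2l6, Ube2o, Ube2c and Ube2t remained at least 4-fold higher under every alternative. Ube2b (1.89), Ube2e3 (1.75) and Ube2r2 (1.92) were under 4-fold after quantile normalization. Ube2h (1.89) and Ube2b (0.79) were so with the mean of probe sets, and Ube2f (1.75), Ube2s (1.98) and Ube2r2 (1.95) without probe sets marked as sharing sequence. The 4 lower members kept their call wherever they had a value, and Ube2w had none with the mean of probe sets. No member past 4-fold had the other sign under an alternative. Ube2d2a, Ube2d3, Ube2j2, Ube2v2 and Ube2d-ps, which did not pass it, did. Centring on the genes measured in both arrays, an alternative added after seeing the data, gave 11 higher members. Of the partner genes past 4-fold, Armc8 had the other sign without probe sets marked as sharing sequence (-0.29), as did the white cell marker Laptm5 (0.73). The calls at 4-fold over the whole array numbered 980 up and 1979 down, against 2885 and 3293 without a detection level. No paired analysis was possible because each group has 1 array.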
